A study of Mus musculus with 12 samples.

Results

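The acyl-CoA enzymes and fatty acid carriers are the 54 genes, of 18050 in the expression table, whose symbols begin with Acad, Acot, Acsl, Acsm, Acss, Acsf, Fabp, Hadh, Cpt followed by a digit, or Slc27a. They were taken by name alone, without regard to their values, and fall into 6 fatty acid binding proteins (Fabp), 6 fatty acid transport proteins (Slc27a), 13 acyl-CoA synthetases (Acsl, Acsm, Acss, Acsf), 4 carnitine palmitoyltransferases (Cpt), 13 dehydrogenases (Acad, Hadh) and 12 acyl-CoA thioesterases (Acot). The dehydrogenase group follows the symbols and so takes in Hadhb, a thiolase subunit. RNA was sequenced from the left ventricle of wild-type mice at day 7 after surgery, in 6 libraries from animals labelled MI, read here as myocardial infarction, and 6 libraries from animals labelled sham. The submitters' processing notes part each group into replicates 1 and 2 and replicates 3 to 6, and the MI effect is given within each of these sets as well as over all 12 libraries. The labels give neither the age nor the strain of the mice, and do not say which region of the injured ventricle was taken. They do not say that libraries came from separate animals either, and p-values reflect the spread from library to library alone, part or all of which may be technical.

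Heart muscle takes most of its energy from fatty acids. Transport proteins of the membrane bring them in, binding proteins carry them through the cytosol, and synthetases join them to coenzyme A. Carnitine palmitoyltransferases then move the acyl group into the mitochondrion, dehydrogenases and other enzymes shorten it by beta-oxidation, and thioesterases split acyl-CoA back into free acid and coenzyme A. Several steps have a form typical of heart muscle, such as Fabp3, Acsl1 and Cpt1b, and sister forms that are better known from other cells, such as Fabp5, Acsl4 and Cpt1a.

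Summed expected counts were 18546662 and 18602226 in MI replicates 1 and 2, 14168412 to 14410783 in MI replicates 3 to 6, 15541334 and 16066681 in sham replicates 1 and 2, and 9140353 to 9750764 in sham replicates 3 to 6. The biological coefficient of variation within a group was 0.199 for MI and 0.112 for sham in replicates 1 and 2, against 0.0208 for MI and 0.0293 for sham in replicates 3 to 6, so that the last 4 libraries of each group lay far closer together than the first 2. A gene was therefore called as having risen or fallen when it passed an adjusted p under 0.05 both in the 12-library edgeR test and in the same test with replicates 3 to 6 of each group summed and counted once. Among counts of 4 beta-globin genes, the copies Hbb-bs and Hbb-bt held 0.0596% to 0.194% in MI replicates 3 to 6 and 99.88% to 99.99% in sham replicates 3 to 6. In that set a difference in the globin locus, and in whatever else differs with it, cannot be told apart from MI. Counts among these globin genes are blank in replicates 1 and 2, so the same check could not be made there. Summed lung epithelium markers, among them the surfactant genes, stood at 168 to 172 CPM (counts scaled to library size with TMM factors) in MI replicates 3 to 6 and at 0.596 to 1.33 CPM in sham replicates 3 to 6, and at 2.64 to 2.79 CPM in MI and 0.228 to 0.296 CPM in sham libraries of replicates 1 and 2. Their part in the values of the fatty acid genes was not tested.

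Of the 54 genes, 45 were abundant enough to test, of which 30 fell, 8 rose and 7 were not called. Members thus fell in 66.7% of cases and rose in 17.8%, while of all 13592 genes tested 29.8% fell and 28.1% rose. The median log2 fold change of the 45 was -1.37 (MI over sham, range -4.46 to 2.31), against 0.02 for all tested genes. The 6 MI libraries lay wholly below the 6 sham libraries for 25 of the 45 tested members, all among the 30 that fell. They lay wholly above them for 6 of the 45, of which 5 were among the 8 that rose. Among all tested genes 21.4% had every MI library below every sham library and 21.4% had the reverse. The count of members that rose was 4 without sham replicate 1 or without sham replicate 2. With scaling by library size alone, which shifted the median of all genes to 0.42, 10 members rose and 27 fell, and over all genes 6269 rose and 2478 fell in place of 3824 and 4055. The 9 untested members reached at most 1.38 CPM in any library and were Fabp1, Fabp12, Slc27a2, Slc27a5, Acsm2, Acsm3, Acot3, Acot10 and Acot12.

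**Figure D1:**
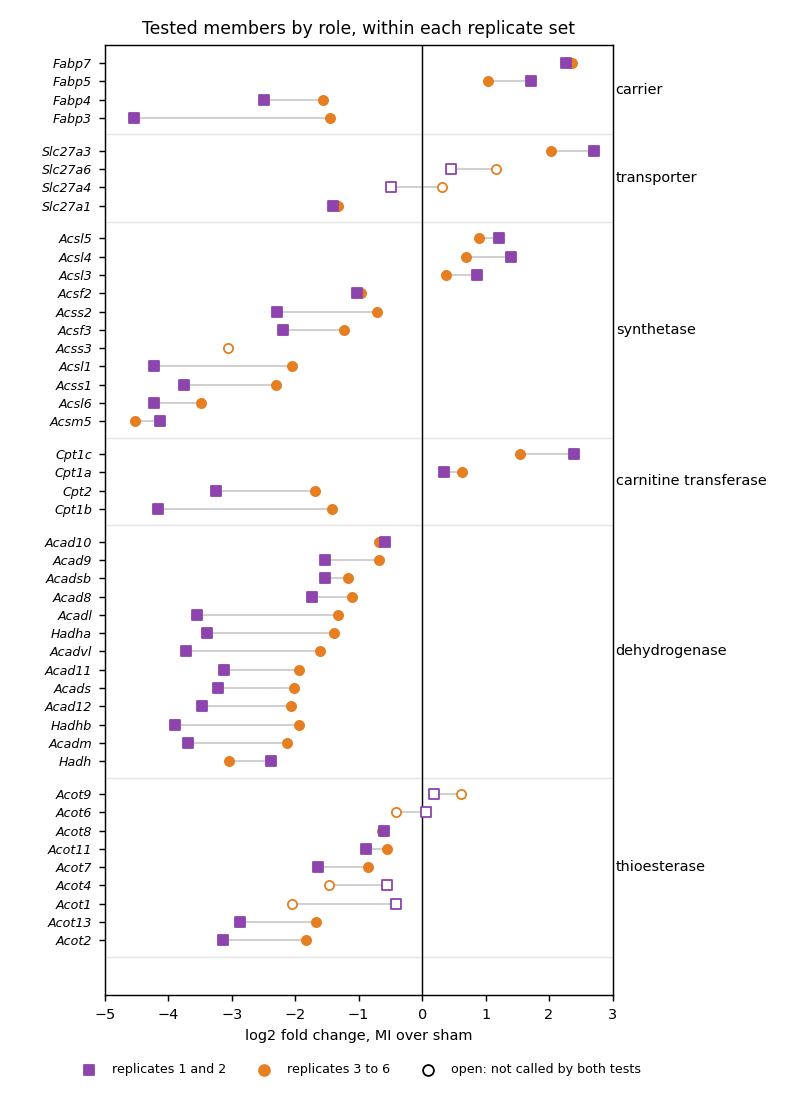
Log2 fold change, MI over sham, of the tested acyl-CoA enzymes and fatty acid carriers within replicates 1 and 2 (purple squares) and within replicates 3 to 6 (orange circles), by role. Filled marks are genes called by both tests. All 13 genes grouped as dehydrogenases lie left of 0 in both sets, while carriers, synthetases and carnitine transferases hold genes on both sides.

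The Fabp carriers went both ways. Fabp3, the heart form, fell and Fabp5, a form known from skin and macrophages, rose, as did the scarce Fabp7, known from brain and glia. Fabp3 (GRCm38 chr4:130308738-130315463, plus strand) stood at 222, 169, 2020, 2010, 1950 and 2010 CPM in MI replicates 1 to 6, against 4190, 4830, 5850, 5510, 5720 and 5650 CPM in sham replicates 1 to 6. No MI library reached any sham library, and MI replicates 1 and 2 were the lowest by far. The log2 fold change was -2.43 (s.e. 0.47, adjusted p = 0.00049, and 0.00967 with replicates 3 to 6 counted once), namely -4.54 within replicates 1 and 2 against -1.46 within replicates 3 to 6. The second p became 0.0697 without MI replicate 1 and 0.0535 without MI replicate 2, which ends the call. Exons of Zcchc17 and Gm10570 on the other strand cover 19.6% of Fabp3's exonic bases, and no source states whether counting used strand.

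Fabp5 stood at 98.2, 230, 213, 203, 203 and 206 CPM in MI libraries 1 to 6, against 38.7, 60.1, 103, 103, 106 and 103 CPM in sham libraries. MI replicate 1 was below the sham libraries of replicates 3 to 6, while within each set both groups were apart. Its log2 fold change was 1.24 (s.e. 0.20, adjusted p = 0.000124, and 0.0205 counted once), namely 1.72 within replicates 1 and 2 against 1.04 within replicates 3 to 6, and the second p became 0.0845 without sham replicate 1 and 0.0666 without sham replicate 2. Fabp4, the form of fat cells and capillary endothelium, lies 187731 bases from Fabp5 on chromosome 3 and moved the other way. It stood at 91.7, 75.4, 699, 695, 700 and 682 CPM in MI libraries and at 433, 496, 2150, 2080, 2160 and 2110 CPM in sham libraries. Levels differed between the sets as well as between the groups, so that MI replicates 3 to 6 were above sham replicates 1 and 2, but within each set every MI library was below every sham library (log2 fold change -2.49 and -1.57).

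Summed endothelial markers were 540 to 569 CPM in MI and 872 to 1030 CPM in sham libraries of replicates 1 and 2, and 907 to 933 CPM in MI and 732 to 761 CPM in sham libraries of replicates 3 to 6. The sum was thus lower in MI in replicates 1 and 2 and higher in MI in replicates 3 to 6. Of the 6 endothelial markers Tie1 fell, with log2 fold changes of -0.88 and -0.13 in the sets, and 5 were not called. Their part in the fall of Fabp4 was not tested. Fat cell markers summed to 2.87 to 7.84 CPM in MI and 6.89 to 14.9 CPM in sham replicates 1 and 2, and to 0.182 to 0.788 CPM in MI and 2.75 to 3.63 CPM in sham replicates 3 to 6. That sum was lower in every MI library than in any sham library of replicates 3 to 6, the ranges overlapped in replicates 1 and 2, and its part in the fall of Fabp4 was not tested either. Fabp7 stood at 0.818, 1.80, 2.96, 4.06, 3.77 and 3.70 CPM in MI libraries and at 0.228, 0.296, 0.585, 0.622, 1.08 and 0.603 CPM in sham libraries, a log2 fold change of 2.31 (s.e. 0.25). It was higher in MI within each set, at few reads, and MI replicate 1 lay below the highest sham library. Of 5 tested Schwann cell and glia markers, 1 rose (S100b) and 4 were not called. The summed markers of this list were 32.1 to 39.7 CPM in MI and 19 to 19.2 CPM in sham replicates 1 and 2. In replicates 3 to 6 the order was reversed, with 22.1 to 25 CPM in MI and 35.7 to 37.3 CPM in sham. Their part in the rise of Fabp7 was not tested.

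**Figure D2:**
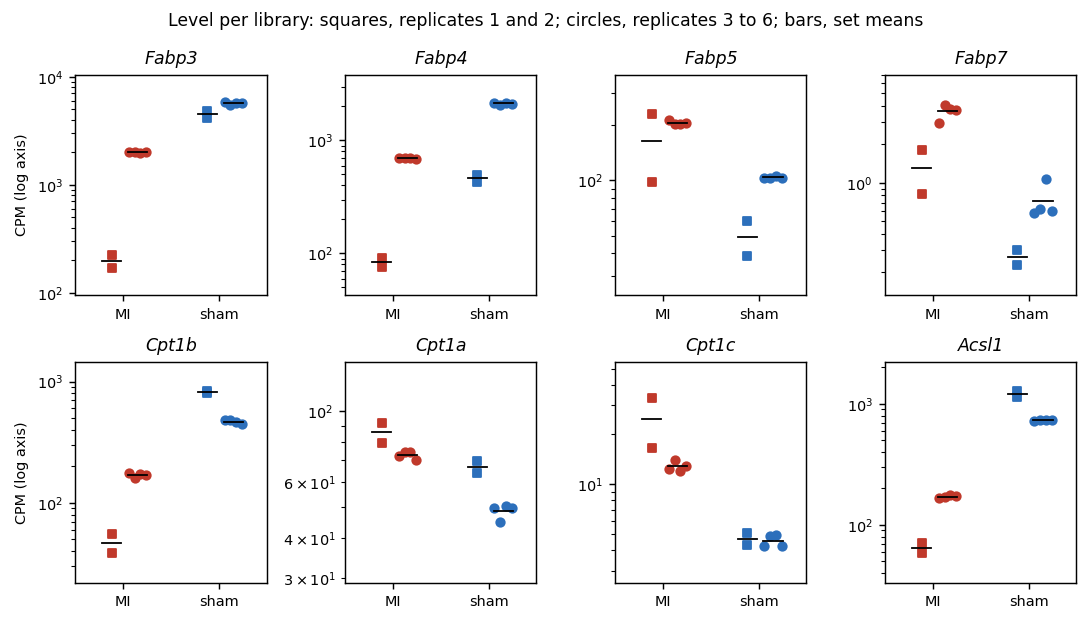
TMM-scaled CPM on log axes in each library, MI on the left and sham on the right, with squares for replicates 1 and 2, circles for replicates 3 to 6 and bars at set means. Fabp3, Cpt1b and Acsl1 are lower in every MI library than in any sham library, and Fabp4 is lower in MI within each set but not across sets. Cpt1a and Cpt1c are higher in every MI library.

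Among the transport proteins, Slc27a1 (FATP1), a form of muscle and fat, fell and Slc27a3 rose. Slc27a1 stood at 83.6, 93.5, 42.3, 40.0, 40.0 and 40.3 CPM in MI libraries and at 257, 204, 108, 106, 104 and 101 CPM in sham libraries. Every MI library was below every sham library, and the fall measured -1.40 on the log2 scale within replicates 1 and 2 against -1.32 within replicates 3 to 6 (difference 0.02, adjusted p = 0.927 in the 12-library fit). Slc27a3 was at 18.2, 13.6, 8.14, 6.37, 8.44 and 7.02 CPM in MI and at 1.92, 2.93, 2.45, 1.99, 2.08 and 1.14 CPM in sham libraries. The groups did not overlap, and the log2 fold change of 2.28 (s.e. 0.21, adjusted p = 9.15e-07, and 0.00192 counted once) was the second largest rise of the tested members after Fabp7. Slc27a4 was not called (log2 fold change -0.01, adjusted p = 0.972), although each set taken alone called it, in opposite directions: at -0.50 within replicates 1 and 2 (adjusted p = 0.00795) and 0.31 within replicates 3 to 6 (adjusted p = 0.000303). In replicates 3 to 6 the groups overlapped, with MI replicate 6 at 22.8 CPM and sham replicate 3 at 23.3 CPM. The difference of 0.74 between the sets had an adjusted p of 0.000126 in the 12-library fit and 0.0684 counted once. Slc27a6, known from human heart, was not called either (0.85, adjusted p = 0.131 counted once), although its 1.21 to 1.64 CPM in MI all lay above the 0.585 to 1.07 CPM in sham.

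Of 11 tested synthetases 7 fell and 3 rose, where 29.8% of all tested genes fell and 28.1% rose. Those that rose were all of the long-chain Acsl family. Acsl1, which activates long-chain fatty acids for oxidation in heart, stood at 58.2, 71.3, 168, 170, 175 and 173 CPM in MI libraries, against 1270, 1130, 723, 740, 737 and 741 CPM in sham libraries. The groups were far apart in both sets, with a log2 fold change of -2.78 (s.e. 0.33, adjusted p = 7.90e-06, and 0.00286 counted once). Acsl5 stood at 67.5, 85.2, 82.4, 80.1, 90.4 and 87.6 CPM in MI and at 30.2, 35.1, 47.3, 46.9, 46.4 and 49.7 CPM in sham libraries, again without overlap, a log2 fold change of 0.97 (s.e. 0.09, adjusted p = 6.86e-07, and 0.00333 counted once).

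Acsl4, which favours arachidonic acid, stood at 29.0, 44.2, 43.8, 44.8, 41.0 and 39.3 CPM in MI and at 15.2, 12.1, 28.4, 27.1, 27.5 and 25.5 CPM in sham libraries (log2 fold change 0.90, s.e. 0.15). The groups did not overlap, but the lowest MI library (29.0 CPM) and the highest sham library (28.4 CPM) came from different sets and lay close together. Its adjusted p of 0.0123 with replicates 3 to 6 counted once became 0.0571 without sham replicate 1 and 0.0535 without sham replicate 2. Acsl3, a synthetase of the endoplasmic reticulum and lipid droplets, stood at 12.8, 10.7, 14.9, 13.9, 14.5 and 15.6 CPM in MI and at 7.14, 5.62, 10.1, 12.3, 12.4 and 12.2 CPM in sham libraries (0.51, s.e. 0.12). MI replicate 2 lay below 3 of the sham libraries of the other set, and within each set the groups were apart. Its adjusted p of 0.0385 counted once rose to between 0.069 and 0.139 when any one of MI or sham replicates 1 and 2 was left out.

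The deepest falls of all members over 12 libraries were those of Acsm5 and Acsl6, with mean sham TPM of 4.04 and 6.34. Within replicates 1 and 2 these falls measured -4.135 and -4.225, and Fabp3 (-4.544) and Acsl1 (-4.232) fell further. Acsm5, a medium-chain synthetase, stood at 0, 0.324, 0.424, 0.615, 0.426 and 0.242 CPM in MI and at 3.50, 2.44, 11, 9.07, 10.4 and 11 CPM in sham libraries (log2 fold change -4.46, s.e. 0.33, adjusted p = 1.38e-07, and 0.00441 counted once). Acsl6, best known from brain, changed by -3.71 (s.e. 0.23), and Acss1, the mitochondrial acetyl-CoA synthetase, one of -2.80 (s.e. 0.22), against -1.26 (s.e. 0.23) for its cytosolic sister Acss2. Acsf3, which activates malonate in mitochondria, and Acsf2 fell by 1.60 and 1.01 on the log2 scale. Acss3 was not called, with an adjusted p of 0.0543 counted once: its CPM were 0.417 to 1.15 in MI and 6.84 to 8.45 in sham replicates 3 to 6, but 0.533 and 0.889 in sham replicates 1 and 2. Ppfia2 on the other strand covers 42.3% of its exonic bases.

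RefSeq promoter windows on GRCm38.p6, from 250 bases before to 50 bases after a gene's start, were available for 44 of the 54 genes, including 26 that fell and 7 that rose. They were searched on both strands for DR1, the repeat of AGGNCA after 1 spacer base that PPAR and RXR receptors bind as a pair, for the estrogen-related receptor site TCAAGGTCA, and for its core AAGGTCA, which lies within TCAAGGTCA. DR1 was found in 0 of 26 members that fell, 0 of 7 that rose and 0.451% of all 27025 genes with a window. TCAAGGTCA was found in 1 member that fell (Acsl6), 0 that rose and 0.466% of all genes. The core was found in 2 that fell (7.69%, Acadm and Acsl6), 0 that rose and 5.38% of all genes. Of 11 members not called or not tested, 1 held DR1 (9.09%) and 3 the core (27.3%). A match describes letters and no binding, and no match concerns this window alone. The windows of Acadm and Acsl6 are shown with the core, read on the other strand, in capitals. It begins 249 bases before the start of Acadm, and 189 and 167 bases before the start of Acsl6 in the first of its 3 windows.
Acadm (minus strand, chr3:153944594-153944893): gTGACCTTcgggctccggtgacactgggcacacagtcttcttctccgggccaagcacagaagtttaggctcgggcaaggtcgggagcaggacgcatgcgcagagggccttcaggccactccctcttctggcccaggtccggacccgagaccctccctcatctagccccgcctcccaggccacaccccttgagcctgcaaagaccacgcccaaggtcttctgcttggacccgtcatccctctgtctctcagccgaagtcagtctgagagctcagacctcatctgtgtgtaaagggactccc
Acsl6 (plus strand, chr11:54303574-54303873): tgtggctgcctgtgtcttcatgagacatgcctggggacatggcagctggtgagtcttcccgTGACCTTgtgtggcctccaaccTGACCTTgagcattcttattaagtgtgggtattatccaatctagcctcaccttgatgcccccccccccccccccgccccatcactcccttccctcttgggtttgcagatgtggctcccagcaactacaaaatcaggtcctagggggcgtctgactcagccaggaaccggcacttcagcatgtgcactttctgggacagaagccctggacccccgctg

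Of the carnitine palmitoyltransferases, the muscle form Cpt1b and the inner-membrane enzyme Cpt2 fell while Cpt1a, the form of liver and many other tissues, and Cpt1c, a neuronal form of low activity, rose. Cpt1b (chr15:89416405-89425862, minus strand) stood at 54.8, 38.3, 175, 160, 173 and 169 CPM in MI libraries and at 808, 832, 482, 482, 462 and 447 CPM in sham libraries. The groups did not overlap, and MI libraries were lower and sham libraries higher in replicates 1 and 2 than in the other set. The log2 fold change was -2.30 (s.e. 0.41, adjusted p = 0.000248, and 0.00673 counted once), namely -4.16 within replicates 1 and 2 against -1.42 within replicates 3 to 6. Exons of Gm44502 on the same strand cover 94.8% of Cpt1b's exonic bases, so the reads of these annotated genes may not be separable.

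Cpt1a stood at 79.6, 91.7, 72.5, 74.4, 74.3 and 70.2 CPM in MI libraries and at 69.8, 64.1, 49.5, 45.0, 50.2 and 49.8 CPM in sham libraries. The groups did not overlap, though the lowest MI value of 70.2 lay next to the highest sham value of 69.8. The log2 fold change of 0.51 (s.e. 0.06, adjusted p = 1.05e-05, and 0.0314 counted once) was 0.34 in replicates 1 and 2, where alone it was not called (adjusted p = 0.0535), and 0.63 in replicates 3 to 6, and the second p rose to 0.084 without sham replicate 1, 0.133 without sham replicate 2 and 0.0983 without MI replicate 2. Cpt1c stood at 33.0, 16.5, 12.3, 14, 12 and 12.9 CPM in MI and at 4.26, 5.04, 4.21, 4.85, 4.89 and 4.22 CPM in sham libraries. Every MI library was above every sham library and MI replicate 1 stood far above the rest, with a log2 fold change of 1.83 (s.e. 0.20, adjusted p = 5.35e-06, and 0.00478 counted once). Genes on the other strand cover 13.1% of the exonic bases of Cpt1c.

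Because shares within a family do not depend on how libraries are scaled, the deposited TPM (transcript shares of a library, which allow for gene length) were also set against the family's sum in each library. Cpt1b held 32.5% and 37.6% of Cpt1 TPM in MI replicates 1 and 2 and 70.6% to 73.5% in MI replicates 3 to 6, against 94.0% to 94.4% and 92.0% to 93.0% in the sham libraries of these sets. Cpt1a held 36.7% to 52.7% and 20.5% to 22.2% in MI, against 4.93% to 5.49% and 5.86% to 6.95% in sham. Cpt1c, a negligible part of sham Cpt1 TPM (0.513% to 1.24%), reached 14.8% to 25.7% in MI replicates 1 and 2 and 5.95% to 7.23% in MI replicates 3 to 6. In the long-chain synthetases, Acsl1 held 30.9% to 31.3% and 50% to 51.1% in MI, against 94.2% to 94.9% and 85.8% to 86.0% in sham. Acsl5 held 49.7% to 49.9% and 34.0% to 36.1% in MI, against 2.88% to 3.89% and 7.59% to 7.97% in sham, so that it passed Acsl1 in MI replicates 1 and 2 and not in MI replicates 3 to 6.

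Among the carriers the share of Fabp3 was 41.6% to 58.0% in MI and 90% to 90.1% in sham libraries of replicates 1 and 2, but 69.8% to 70.8% in MI and 71.9% to 72.4% in sham libraries of replicates 3 to 6, where Fabp4 and Fabp3 fell by similar amounts. Fabp5 held 17.9% to 39.5% and 4.97% to 5.17% in MI, against 0.582% to 0.781% and 0.888% to 0.940% in sham. Among the transport proteins Slc27a1 held 54.1% to 63.0% in MI and 78.1% to 85.1% in sham libraries over both sets, and Slc27a3 11.7% to 16.0% in MI and 0.777% to 2.39% in sham. Slc27a4 held 24.1% to 26% in MI and 17% to 20% in sham libraries of replicates 1 and 2, and 26.4% to 28.8% in MI and 11.9% to 14.5% in sham libraries of replicates 3 to 6.

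**Figure D3:**
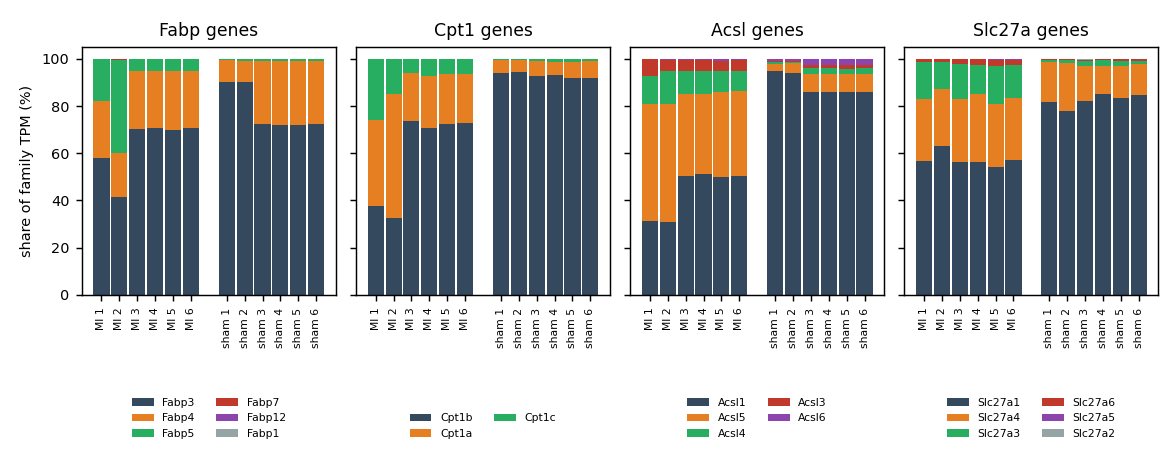
Share of the summed deposited TPM of each family (percent) held by each gene, in MI replicates 1 to 6 and sham replicates 1 to 6. The dark segments are Fabp3, Cpt1b, Acsl1 and Slc27a1; for Cpt1b they reach 32.5% to 37.6% in MI replicates 1 and 2, 70.6% to 73.5% in MI replicates 3 to 6 and 92.0% to 94.4% in sham libraries.

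All 13 genes grouped as dehydrogenases fell, with log2 fold changes of -2.85 to -0.68 and a median of -2.31. Hadhb, the thiolase subunit of the mitochondrial trifunctional protein and the most abundant of them by sham TPM, stood at 159, 159, 661, 662, 673 and 659 CPM in MI libraries and at 2420, 2260, 2510, 2650, 2740 and 2690 CPM in sham libraries. The groups were apart in both sets, with log2 fold changes of -3.89 and -1.95. Hadha, which carries the hydratase and long-chain hydroxyacyl-CoA dehydrogenase activities of the same protein, changed by -3.39 and -1.39. Their starts lie 272 bases apart on opposite strands of chromosome 5, and their promoter windows share 228 bases. The Hadhb window is shown because the pair moved together, with the bases shared with the Hadha window in capitals.
Hadhb (plus strand, chr5:30155003-30155302): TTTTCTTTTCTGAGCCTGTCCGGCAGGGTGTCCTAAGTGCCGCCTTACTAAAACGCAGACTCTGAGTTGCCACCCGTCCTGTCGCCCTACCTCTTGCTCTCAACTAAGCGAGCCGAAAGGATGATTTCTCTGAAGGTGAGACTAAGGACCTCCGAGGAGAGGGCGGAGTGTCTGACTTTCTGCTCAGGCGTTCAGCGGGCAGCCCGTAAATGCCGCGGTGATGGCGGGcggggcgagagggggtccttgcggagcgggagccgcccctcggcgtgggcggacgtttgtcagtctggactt

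The acyl-CoA dehydrogenases of long, medium and short chains fell together. Over 12 libraries the log2 fold change was -2.31 (s.e. 0.31) for Acadvl, -2.06 (s.e. 0.33) for Acadl, -2.67 (s.e. 0.23) for Acadm and -2.45 (s.e. 0.18) for Acads. Dvl2 on the other strand covers 45.0% of the exonic bases of Acadvl. The log2 fold change was -1.32 (s.e. 0.07) for Acadsb, which acts in isoleucine breakdown, -1.34 (s.e. 0.10) for Acad8, which acts in valine breakdown, and -2.68 (s.e. 0.17) for Ivd, the dehydrogenase of leucine breakdown, which is not one of the 54 genes. Acad9, an assembly factor of complex I, changed by -0.99 (s.e. 0.12), and Gm43079 covers 14.2% of its exonic bases.

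Hadh, the short-chain hydroxyacyl-CoA dehydrogenase, stood at 52.5, 49.8, 90.8, 83.2, 95.1 and 92.6 CPM in MI libraries and at 270, 259, 781, 761, 772 and 760 CPM in sham libraries. Its fall of -2.85 (s.e. 0.12, adjusted p = 1.93e-09, and 0.000979 counted once) measured -3.04 within replicates 3 to 6 and -2.39 within replicates 1 and 2, while Acadvl, Acadl, Acadm, Acads, Hadha and Hadhb had the larger fall in replicates 1 and 2. Sham levels of Hadh also differed between the sets more than those of Hadhb. Acad10 had the smallest fall, at 5.77, 6.01, 4.43, 3.50, 3.86 and 4.23 CPM in MI and 7.75, 9.79, 5.85, 7.94, 5.01 and 7.85 CPM in sham libraries (log2 fold change -0.68, s.e. 0.13, adjusted p = 0.0006, and 0.0359 counted once). The groups overlapped, the second p was 0.0639 to 0.136 without any one of MI or sham replicates 1 and 2, and with library-size scaling alone it was 0.415.

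Of 9 tested thioesterases 5 fell, 0 rose and 4 were not called, and the edgeR test of 12 libraries alone would add 2 falls (Acot1, Acot4) and 1 rise (Acot9), in a test that called 38.0% of all genes as fallen and 37.9% as risen. Acot2, the mitochondrial enzyme, stood at 7.82, 10.2, 22.9, 22.9, 20.8 and 23.9 CPM in MI libraries and at 79.5, 77.7, 81.4, 85.1, 86.1 and 81.6 CPM in sham libraries. Sham libraries of both sets were level with each other and all MI libraries were below them, with a log2 fold change of -2.29 (s.e. 0.19, adjusted p = 3.93e-07, and 0.00149 counted once). Its cytosolic neighbour Acot1, 15624 bases away on chromosome 12, was at 3.15, 2.75, 2.27, 1.35, 1.88 and 1.97 CPM in MI and at 4.86, 2.94, 8.28, 6.70, 9.22 and 8.37 CPM in sham libraries. It was not called (adjusted p = 0.105 counted once), and MI replicate 1 lay above sham replicate 2. Acot1, Acot2, Acot3, Acot4 and Acot6 are closely similar tandem copies, so the split of reads among them is uncertain.

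Acot13, a small mitochondria-associated thioesterase and the most abundant of the family by sham TPM, stood at 26.2, 31.2, 160, 167, 169 and 167 CPM in MI and at 230, 182, 564, 523, 546 and 553 CPM in sham libraries. No MI library reached a sham library (log2 fold change -2.09, s.e. 0.18, adjusted p = 5.05e-07, and 0.0017 counted once). Acot8, the peroxisomal form, fell least, at 9.06, 10.4, 5.45, 5.48, 5.80 and 6.32 CPM in MI and 14.3, 14.9, 10.3, 7.75, 10.7 and 7.95 CPM in sham libraries (-0.64, s.e. 0.10). Within each set MI was lower, but the adjusted p counted once was 0.0697 without MI replicate 1, 0.0654 without sham replicate 1 and 0.0705 without sham replicate 2. With scaling by library size alone the call was also lost (log2 fold change -0.23, adjusted p = 0.357 counted once), and Snx21 on the other strand covers 21.1% of its exonic bases. Acot9, another mitochondrial thioesterase, was not called (0.44, adjusted p = 0.129 counted once) but rose under that scaling (0.85, adjusted p = 0.00736 counted once).

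The 12 members typical of heart muscle (Cpt1b, Cpt2, Fabp3, Slc27a1, Acsl1, Acadvl, Acadl, Acadm, Acads, Hadha, Hadhb and Hadh) all fell, with log2 fold changes of -2.85 to -1.37. Their mean sham TPM ran from 59.7 (Slc27a1) to 10930 (Fabp3) with a median of 570, against 1.02 to 122 (Fabp5) with a median of 4.70 for the 8 that rose. Other members were also abundant, with mean sham TPM of 3158 for Fabp4 and 871 for Acot13. Summed TPM of the 12 muscle members was 1777, 1647, 8982, 8906, 8805 and 8868 in MI replicates 1 to 6 and 17170 to 17890 in the sham libraries. Summed TPM of the 8 that rose was 408, 778, 609, 589, 596 and 595 in MI replicates 1 to 6 and 114, 144, 194, 196, 198 and 197 in sham replicates 1 to 6. The sum of the genes that rose was below that of the muscle members in every library, and in MI replicate 2 it came closest to it. All 54 genes together took 0.234% to 0.253% of counts in MI replicates 1 and 2 and 0.777% to 0.784% in MI replicates 3 to 6, against 1.56% to 1.57% and 1.77% to 1.80% in the sham libraries of these sets.

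The size of the MI effect depended on the set. Within replicates 1 and 2 alone 30 members fell and 7 rose, where 32.9% and 34.1% of all genes did so. Within replicates 3 to 6 alone 33 fell and 11 rose, against 39.5% and 42.2% of all genes. The median log2 fold change of the 12 muscle members was -3.62 in replicates 1 and 2 and -1.65 in replicates 3 to 6. The difference itself was called by both fits for 13 members, all with the smaller fall in replicates 3 to 6, where 6.70% of all genes had a called positive difference and 3.86% a negative one. They were Fabp3 (difference 3.02 on the log2 scale), Cpt1b (2.67), Acadl (2.16), Acsl1 (2.12), Acadvl (2.05), Hadha (1.93), Hadhb (1.88), Acadm (1.49), Cpt2 (1.49), Acad12 (1.33), Acot2 (1.24), Acads (1.13) and Acad11 (1.11). Of the muscle members only Hadh and Slc27a1 were missing from these 13. For Hadh the difference was -0.72 (adjusted p = 5.05e-06 in the 12-library fit, and 0.0682 counted once).

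**Figure D4:**
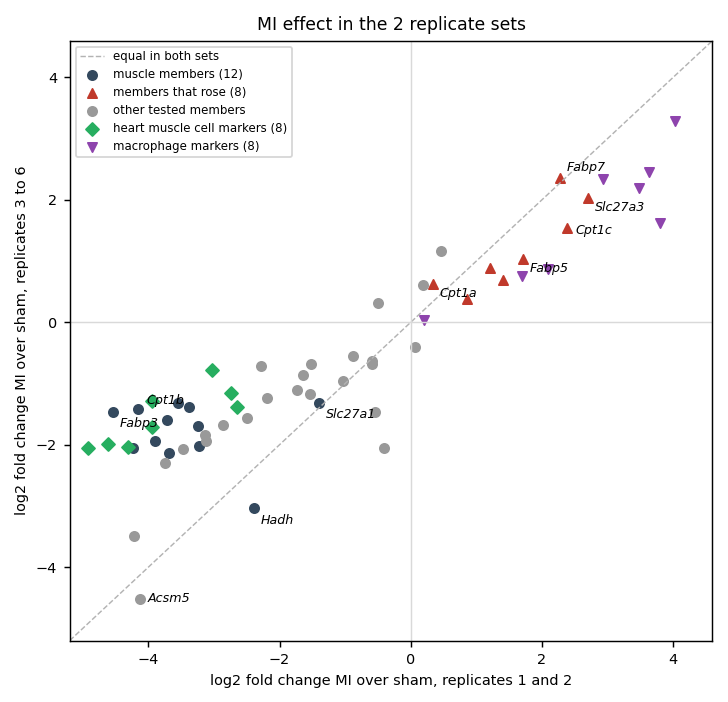
Log2 fold change, MI over sham, in replicates 1 and 2 (horizontal axis) against replicates 3 to 6 (vertical axis) for muscle members, members that rose, other tested members, and markers of heart muscle cells and macrophages. Muscle members and heart muscle markers lie above the dashed line of equal effect, with medians of -3.62 and -3.94 on the horizontal axis and -1.65 and -1.55 on the vertical axis, except Hadh below it and Slc27a1 near it.

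Markers of heart muscle cells moved with the muscle members. All 8 fell, among them Myh6, Tnnt2 and Ryr2, and their sum was 5690 to 9200 CPM in MI and 89300 to 90400 CPM in sham libraries of replicates 1 and 2, and 25500 to 26000 CPM in MI and 77000 to 78900 CPM in sham libraries of replicates 3 to 6. The log2 change of that sum was -3.63 and -1.60 in these sets. Single markers ranged from -4.92 (Myl3) to -2.65 (Tnnt2) in replicates 1 and 2. In replicates 3 to 6 they ranged from -2.06 (Myl3) to -0.78 (Actc1). The sum is weighted to the most abundant markers, so values set against it depend on the markers chosen. In bulk tissue fewer muscle cells and less RNA of a gene per muscle cell cannot be told apart. Set against the summed markers, 10 of the 12 muscle members changed by at most 1 on the log2 scale in replicates 1 and 2, and 11 of 12 in replicates 3 to 6. Relative to the markers the change was -0.90 and 0.09 for Fabp3 and -0.53 and 0.13 for Cpt1b. The exceptions were Slc27a1 (2.26 in replicates 1 and 2) and Hadh (1.26 in replicates 1 and 2 and -1.49 in replicates 3 to 6). Changes within 1 in both sets were not particular to the muscle members. Acad11 (0.53 and -0.40), Acot2 (0.50 and -0.29), Acot13 (0.80 and -0.13) and Acss1 (-0.08 and -0.76) had them too. Other members that fell did not, such as Acad8 (1.91 and 0.44) and Acsf2 (2.62 and 0.58). For the 8 genes that rose, the change relative to the markers was 3.99 to 6.36 in replicates 1 and 2 and 1.92 to 3.96 in replicates 3 to 6. These genes were picked because they rose and the marker sum fell, so positive values here follow from the choice and are no separate result.

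Markers of macrophages and fibroblasts moved the other way. Of 8 macrophage markers 7 rose, all but Mrc1, and their sum was 3620 to 5430 CPM in MI and 572 to 577 CPM in sham libraries of replicates 1 and 2, and 3350 to 3470 CPM in MI and 956 to 997 CPM in sham libraries of replicates 3 to 6. All 6 fibroblast markers rose, with sums of 55600 to 70900 CPM in MI and 2290 to 2630 CPM in sham, and of 24500 to 24800 CPM in MI and 845 to 869 CPM in sham libraries. Of the 8 members that rose, 6 had the larger log2 fold change in replicates 1 and 2, but for none of the 8 did both fits call a difference between the sets. Of all genes, both fits called 6.70% as positive and 3.86% as negative. The 12-library fit alone called a smaller rise in replicates 3 to 6 for Acsl3, Acsl4, Acsl5 and Cpt1c. That fit called a difference for 55.0% of all genes. The median log2 fold change of the markers was 3.21 within replicates 1 and 2 and 1.91 within replicates 3 to 6 for macrophages, and 4.50 and 4.87 for fibroblasts. Whether these cell types account for the higher levels of the 8 members was not tested.

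Beyond the 54 genes, 58 others of fatty acid uptake, oxidation and synthesis were listed and 55 tested, of which 39 fell and 7 rose. Their median was -1.45 on the log2 scale. The largest falls were in Scd4, a heart form of stearoyl-CoA desaturase (-2.91, s.e. 0.26), Ech1, which shifts double bonds during oxidation (-2.89, s.e. 0.22), and Acaa2, the last enzyme of the mitochondrial cycle (-2.74, s.e. 0.28). The uptake genes Cd36 and Lpl fell as well (-1.76, s.e. 0.22, and -2.55, s.e. 0.26). The largest rises were in Angptl4, an inhibitor of lipoprotein lipase (1.61, s.e. 0.17), the elongase Elovl1 (1.27, s.e. 0.05) and the desaturase Scd2 (1.12, s.e. 0.08), and the other risers were Elovl6, Acbd3, Acaca and Acly. Acaca and Acly make malonyl-CoA and acetyl-CoA for fatty acid synthesis. Elovl5, the most abundant gene not called by CPM, stood at 59.3 and 81.2 CPM in MI and 52.9 and 63.2 CPM in sham libraries as means of replicates 1 and 2 and of replicates 3 to 6 (adjusted p = 0.147 counted once).

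Of 12 nuclear receptors and cofactors that govern this pathway in heart, 10 fell, 0 rose, and Pparg and Nrip1 were not called. Ppara, the main fatty acid receptor of heart muscle, averaged 5.20 and 9.61 CPM in MI and 98.6 and 38.2 CPM in sham libraries of replicates 1 and 2 and of replicates 3 to 6, a log2 fold change of -2.72 (s.e. 0.34, adjusted p = 1.31e-05, and 0.00293 counted once). Its partner Rxrg changed by -2.93 (s.e. 0.36) and the cofactor Ppargc1a by -2.20 (s.e. 0.17), while the widely expressed Rxra changed by -0.52 (s.e. 0.08) and Ppard by -0.60 (s.e. 0.09). The falls of Ppara, Rxrg, Esrrb and Esrrg were larger in replicates 1 and 2, a difference called by both fits, as it was for 10 of the 12 muscle members.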

How the data were processed

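Messenger RNA was enriched with oligo(dT) before sequencing, per the labels' protocols. The submitters' processing notes name GRCm38 for all libraries, and Bowtie2, RSEM and DESeq2 for replicates 3 to 6. Strandedness and other steps are not given in the sources used here. The authors deposited 1 table of expected counts, TPM and FPKM for 18050 genes, of which 425 are blank in replicates 1 and 2. The deposited expected counts are unscaled estimates of reads per gene. The deposited TPM and FPKM are scaled by gene length and library by the authors, without the TMM factors used for CPM. A further table of FPKM for replicates 1 and 2 was not used.

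Counts were rounded to whole numbers, and differences were tested in R 4.3.3 by edgeR 4.0.16 (TMM scaling, its filterByExpr, the quasi-likelihood F test, label set as covariate, Benjamini-Hochberg adjusted p under 0.05 over all genes tested), once on 12 libraries and once with replicates 3 to 6 summed. Standard errors come from the 12-library test. Each set was also fitted alone. A set by group term tested whether the MI effect differed between sets. The tests were checked on simulated counts drawn independently for each library, a check that does not cover replicates sharing a deviation. Alternatives covered scaling, DESeq2 1.42.0, limma 3.58.1 on log2(FPKM + pseudocount) with 1 or 0.1, other filters and thresholds, no covariate, a replicate block, and each library left out.

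The members, the lists and the tests were chosen with earlier results of these data known. Given in full are, for each role, the member with the highest sham TPM, those with the largest and smallest log2 fold change among called members of at least 5 CPM, and every called riser of at least 1 CPM. Fabp4, Acot1 and other members were named as neighbours or after their values were seen. Gene starts and ends are from RefSeq on GRCm38, strands and exon overlaps from GENCODE M21 on GRCm38, and promoter sequences from RefSeq on GRCm38.p6. Depth is given by the summed counts, and differences at levels near 1 CPM rest on few reads.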

Additional observations from a re-analysis of the deposited data

Results flagged for a closer look

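The check covered 38 groups of 6 libraries (MI and sham, for 19 members given in every library). Of these, 3 held a library whose gap to the nearest of the others passed Dixon's critical ratio of 0.625. Chance gives about 1 in 20 groups only where all 6 values are independent and alike in level and spread. Each group pooled both sets, which differ in these, so that rate does not apply here and the flags are descriptive. Low pairs also go unflagged, such as the MI values of Fabp3 at 222 and 169 CPM. All 3 flagged values came from 1 library, MI replicate 1. It stood at 98.2 CPM for Fabp5, where the nearest MI library was at 203 CPM, at 29.0 CPM for Acsl4, where the nearest was at 39.3 CPM, and at 33.0 CPM for Cpt1c, where the nearest was at 16.5 CPM. It was thus the lowest for Fabp5 and Acsl4 and the highest for Cpt1c.

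The MI effect differed between the sets for 13 members, by the test of the set by group term in both fits. The log2 fold change in replicates 3 to 6 minus that in replicates 1 and 2 was 3.02 for Fabp3, 2.67 for Cpt1b, 2.16 for Acadl, 2.12 for Acsl1, 2.05 for Acadvl, 1.93 for Hadha, 1.88 for Hadhb, 1.49 for Acadm, 1.49 for Cpt2, 1.33 for Acad12, 1.24 for Acot2, 1.13 for Acads and 1.11 for Acad11. Summed heart muscle markers moved the same way between the sets, and their part in these differences was not tested.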

How the results depend on the processing

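Of 38 called members, 24 kept their call under every alternative run. Members rising numbered 4 at an adjusted p under 0.01, 4 with a change of at least 2-fold required, 3 without the set covariate, and 4 to 8 with a library left out, while members falling stayed between 23 and 33 and between 27 and 30 with a library left out. All genes rising and falling numbered 6269 and 2478 with library size alone, 6174 and 2543 with limma and a pseudocount of 1, 6223 and 2562 with 0.1, 2277 and 2035 at 2-fold, 2305 and 2218 without the covariate, and 2240 to 3915 and 2789 to 4073 with a library left out. They also numbered 2184 rising at 0.01 and 5828 rising in replicates 3 to 6 alone. A different effect between sets was called for 31 members by the 12-library fit alone, where 55.0% of all genes were called, and for 13 by both fits. Replicate numbers did not pair libraries (correlations -0.0443 to 0.053). With the replicate block 6 members rose and 29 fell, and Cpt1a, Acsl3 and Acad10 were no longer called. Signs turned for uncalled members only. Acot6 (-0.21) was at 0.20 with library size, 0.059 and 0.10 with limma and 0.06 in replicates 1 and 2. Slc27a4 (-0.01) was at 0.41 with library size, 0.004 with DESeq2, 0.36 and 0.42 with limma, 0.025 unfiltered, 0.005 with the block, 0.31 in replicates 3 to 6, and -0.073 to 0.10 with a library left out (above 0 for 6 libraries: 0.073, 0.10, 0.008, 0.049, 0.042 and 0.003). The cause was not tested. Fabp7, Acsm5, Acot4 and the untested members are limited by depth.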
